A study of Drosophila melanogaster with 2 samples.

Results

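Oxidative phosphorylation genes were examined for recovery of a luna-GFP fusion protein near their transcription starts. They were taken as the protein-coding genes whose names in Ensembl's fly annotation begin with ND-, UQCR-, ATPsyn, or COX and a digit, which gave 80 of 13945 protein-coding genes. By name, 40 belong to complex I, 9 to complex III, 16 to complex IV and 15 to complex V. The names do not take in complex II, cytochrome c, subunits with older names such as blw, or the subunits encoded by the mitochondrial genome, on which the lists hold 0 peaks. The material was whole Drosophila melanogaster embryos, male and female pooled, 0 to 24 h old, of the strain luna-MiMIC-GFP. In this line an eGFP exon placed in an intron of luna makes the endogenous gene produce a GFP fusion, and the sources used here do not describe any other allele. Sonicated chromatin of 200 to 800 bp was precipitated with an antibody to GFP in 2 biological replicates of this 1 group, both from the same fly line. The control experiment named in the labels was not analysed here, and since whole embryos of all stages were mixed, cell types and stages cannot be told apart.

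Oxidative phosphorylation passes electrons from NADH and succinate through the protein complexes of the inner mitochondrial membrane to oxygen, and the proton gradient built on the way drives ATP synthase. Complex I oxidises NADH, complex III passes electrons to cytochrome c, complex IV reduces oxygen, and complex V is ATP synthase. Most subunits are encoded in the nucleus, so the nuclear promoters of each complex have to be used together with the mitochondrial genome. The gene luna encodes a zinc finger protein of the Krüppel-like factor (KLF) family.

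The deposited peaks come as a candidate list for each replicate, a candidate list of both replicates pooled, and an IDR list. The last passed the irreproducible discovery rate (IDR), a cut on how well peak ranks repeat between replicates. It holds exactly the 1696 strongest pooled candidates, so any pooled candidate that did not pass is weaker than its lowest signal. A place in it thus follows the pooled signal, and the ranks of a single peak can still differ widely between replicates. A gene was said to have a promoter summit where the summit of a peak lay within 500 bp of any of its annotated transcription start sites (TSSs). The stretches of 6 genes with an IDR promoter summit are printed here. Most of them lie between the starts of a neighbouring pair of genes read in opposite directions. Those of ND-51, ND-SGDH, COX5B and COX6B are printed whole and show how short such shared stretches can be. Only a part is printed for ND-ASHI and COX8. Each of the 6 is given on the strand of the named gene, 5′ to 3′, from RefSeq's Release 6 assembly (dm6), and holds no exon base of any gene. The stretch of ND-ASHI is chrX:6679338-6679458 on the minus strand, 121 bases centred on the summit. That of ND-51 is chr2L:6062758-6062988 on the minus strand, the whole 231 bases between its start and that of CG13994, with the summit at base 108. That of ND-SGDH is chr3L:12138585-12138867 on the minus strand, the whole 283 bases up to the start of RhoGAP68F, with the summit at base 221. That of COX5B is chr2L:6557503-6557799 on the plus strand, the whole 297 bases from the start of IFT52, with the summit at base 4. That of COX6B is chrX:19744336-19744430 on the minus strand, the whole 95 bases between its start and those of CG33932 and Rpp20, with the summit at base 73. That of COX8 is chr3L:21539448-21539547 on the minus strand, the 100 bases before its start, with the summit at the last base. Capitals mark CGATA or its reverse TATCG, the nuclear respiratory gene core TTATATAA in ND-SGDH, GAGAG as its reverse CTCTC in COX6B, where it overlaps CGATA, and CAGGTG as its reverse CACCTG in COX8.
ND-ASHI: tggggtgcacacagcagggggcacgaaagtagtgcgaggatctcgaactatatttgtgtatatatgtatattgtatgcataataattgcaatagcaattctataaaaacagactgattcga
ND-51: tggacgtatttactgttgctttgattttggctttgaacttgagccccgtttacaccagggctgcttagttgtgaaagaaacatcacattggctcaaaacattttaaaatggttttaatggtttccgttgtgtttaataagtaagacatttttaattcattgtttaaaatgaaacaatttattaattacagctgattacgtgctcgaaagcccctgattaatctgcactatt
ND-SGDH: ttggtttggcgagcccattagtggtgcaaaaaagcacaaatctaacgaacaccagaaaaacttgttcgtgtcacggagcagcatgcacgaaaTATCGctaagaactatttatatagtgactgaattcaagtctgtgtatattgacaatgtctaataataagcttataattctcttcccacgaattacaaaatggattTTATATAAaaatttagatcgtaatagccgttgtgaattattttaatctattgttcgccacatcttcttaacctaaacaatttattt
COX5B: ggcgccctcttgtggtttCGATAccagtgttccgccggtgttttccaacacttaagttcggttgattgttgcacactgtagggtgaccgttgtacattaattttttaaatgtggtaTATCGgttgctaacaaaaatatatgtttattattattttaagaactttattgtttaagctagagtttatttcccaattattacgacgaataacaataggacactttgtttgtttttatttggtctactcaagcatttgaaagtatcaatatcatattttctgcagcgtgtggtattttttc
COX6B: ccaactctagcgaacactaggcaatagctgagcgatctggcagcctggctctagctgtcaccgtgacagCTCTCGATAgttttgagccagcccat
COX8: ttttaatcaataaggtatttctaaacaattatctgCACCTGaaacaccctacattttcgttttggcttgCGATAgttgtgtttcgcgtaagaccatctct

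In the IDR list, 12 of the 80 genes had a promoter summit, which is 15.0% (95% Wilson interval 8.79% to 24.4%), against 10.7% of all protein-coding genes. The interval covers counting error only and includes the share of all genes, so the gene set as a whole was not told apart from that background. In the pooled candidate list 41 of the 80 had a promoter summit, 51.2% against 45.9% of all protein-coding genes. In the candidates of replicate 1 there were 39, 48.8% against 47.1%, and in those of replicate 2 there were 51, 63.8% (52.8% to 73.4%) against 51.9%. Replicate 2 was the only list in which the interval of the 80 genes did not include the share of all genes. No p-value is given, since genes are not replicates and neighbouring genes share summits, and with 1 group no condition was compared.

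By complex, complex I had an IDR promoter summit in 6 of 40 genes, 15.0% (7.06% to 29.1%). Complex III had 1 of 9, 11.1% (1.99% to 43.5%). Complex IV had 4 of 16, 25.0% (10.2% to 49.5%). Complex V had 1 of 15, 6.67% (1.19% to 29.8%). These intervals overlap one another and each includes 10.7%, so no complex is told apart from another or from all genes by these counts. Of the 80 genes, 21 have names ending in L, with or without a digit (ND-MNLL not counted, whose name is not that of a like gene), most of them named as like another gene of the set or of its complex, and 0 of these had an IDR promoter summit (upper limit 15.5%). Without them the count is 12 of 59, 20.3% (12.0% to 32.3%), but this split was made after the values were seen and removes only genes without an IDR promoter summit. Among the 59, complex IV had 4 of 8, complex I 6 of 34, complex III 1 of 6 and complex V 1 of 11. The share of all protein-coding genes, from which no genes were removed in this way, was 10.7%. All 8 of those complex IV genes had a candidate in replicate 2, against 51.9% of all protein-coding genes. In replicate 1, 6 of them had one, against 47.1%. Because of how the split was made, these counts do not set complex IV apart.

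**Figure D1:**
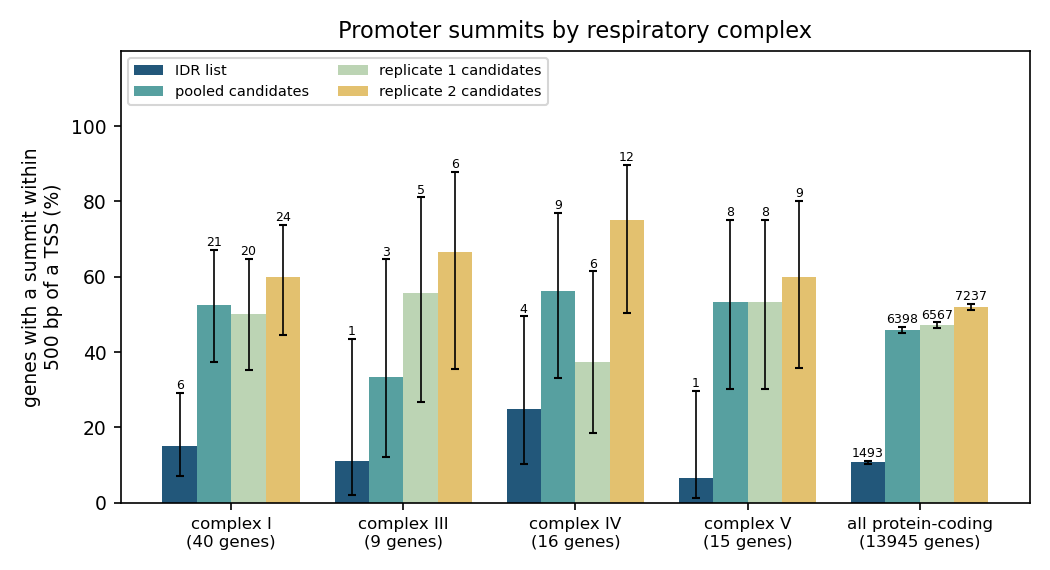
Share of genes (%) with a summit within 500 bp of a TSS in each of the 4 deposited lists, for complexes I, III, IV and V and, at the right, all protein-coding genes; whiskers are 95% Wilson intervals and the number over each bar is the count of genes. The IDR bars stand at 15.0%, 11.1%, 25.0% and 6.67% for the complexes and at 10.7% for all genes, and the whiskers of the complexes overlap.

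Accounting for all 80 genes, 12 had an IDR promoter summit, 29 had a pooled candidate that did not pass, 17 had a candidate in a replicate list alone and 22 had none in any list. The 29 comprised 15 genes of complex I, 2 of III, 5 of IV and 7 of V. The 17 comprised 8 of complex I, 4 of III, 3 of IV and 2 of V, and 10 of them were in replicate 2 only, 3 in replicate 1 only and 4 in both. The 22 with none comprised 11 of complex I, 2 of III, 4 of IV and 5 of V, and 14 of them were among the genes named L. Their nearest pooled candidate lay 581 to 17099 bp from a start, with a median of 2370 bp. No candidate in any list was found for 27.5% of the 80 genes (18.9% to 38.1%), against 37.3% of all protein-coding genes. By chromosome arm, IDR promoter summits were held by 4 of 12 genes on X (33.3%, 13.8% to 60.9%), against 8.11% of all protein-coding genes there. On the other arms the counts were 3 of 16 on 3R (18.8% against 12.0%), 2 of 16 on 2L (12.5% against 10.3%), 2 of 19 on 3L (10.5% against 11.6%), 1 of 15 on 2R (6.67% against 10.9%) and 0 of 2 on chromosome 4 (against 4 of 80). X was the only one of the 6 where the interval of the set did not include the share of all genes, on 4 genes. When the strongest candidates of replicate 1 alone were taken, as many as the IDR list holds, 2 of the 12 on X had a promoter summit. That is 16.7% (4.7% to 44.8%), an interval that includes the 8.15% of all protein-coding genes there. With replicate 2 alone 4 had, 33.3% (13.8% to 60.9%) against 8.24%, so the difference on X was not seen in both replicates.

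Among the 6 complex I genes, ND-51 and ND-24 encode the flavoprotein pair at the tip of the complex, of which ND-51 carries the flavin that takes electrons from NADH. They are 2 of the 7 nuclear core subunits, and 4 of the 27 other complex I genes not named L also had an IDR promoter summit. The strengths that follow are the signal values the authors deposited for each peak, a score with no stated scale, and ranks count from the strongest peak of the same list. The ND-51 peak, chr2L:6062693-6063068, had an IDR signal of 81.9, rank 488 of 1696. Its candidate had a signal of 47.1 and rank 323 in replicate 1, and 33.0 and rank 1065 in replicate 2. ND-51 was among the strongest 1696 candidates of both replicates and ranked higher in replicate 1. Its summit lay 124 bp upstream of the nearer ND-51 start and 108 bp upstream of the start of CG13994 on the opposite strand, near the middle of the sequence given above. The ND-24 peak, chrX:17632005-17632380, had an IDR signal of 74.8, rank 607. In replicate 1 the candidate of ND-24 had a signal of 25.8 and rank 1204, and in replicate 2 it had 51.3 and rank 373, the opposite order to ND-51. The summit lay 104 bp downstream of one ND-24 start and 128 bp upstream of another, and 146 bp upstream of corolla, a gene of the synaptonemal complex.

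The other 4 complex I genes encode accessory subunits, which surround the catalytic core. ND-MWFE had the strongest IDR promoter summit of the 80 genes, with a signal of 125 and rank 180. For ND-MWFE the candidate had a signal of 59.9 and rank 182 in replicate 1, and 61.4 and rank 232 in replicate 2, so both replicates placed it alike. The summit, on arm 2R in the peak at 13158334 to 13158709, lay 144 bp upstream of ND-MWFE but only 77 bp upstream of TppII, which encodes a tripeptidyl peptidase. ND-ASHI, peak chrX:6679210-6679585, had an IDR signal of 105, rank 282. Its candidate had a signal of 47.7 and rank 316 in replicate 1, and 56.7 and rank 293 in replicate 2. Its ranks were close in both replicates, while the candidate summit was 59 bp away in replicate 1 and 1 bp away in replicate 2. The IDR summit lay 280 bp upstream of ND-ASHI and 242 bp upstream of Fum1, which encodes fumarase of the citric acid cycle.

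ND-42, peak chr3R:22027261-22027636, had an IDR signal of 53.8, rank 1236. The ND-42 candidate had a signal of 27.5 and rank 1043 in replicate 1, and 27.6 and rank 1639 in replicate 2. The ND-42 summit lay 260 bp upstream of ND-42 and within a non-coding part of an exon of Cchl, cytochrome c heme lyase, 31 bp downstream of 1 of its starts. ND-SGDH, peak chr3L:12138459-12138834, had an IDR signal of 53.4, rank 1264. In the replicates its candidate had a signal of 23.6 and rank 1440 in replicate 1, with a summit 145 bp away, and 31.5 and rank 1202 in replicate 2, with a summit 6 bp away. Its rank was alike in both replicates, but its position was not. The summit lay 63 bp upstream of ND-SGDH and 221 bp upstream of RhoGAP68F.

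UQCR-14 was the only complex III gene with an IDR promoter summit, and it encodes a small nuclear subunit of that complex. Its peak, chrX:16286086-16286461, had an IDR signal of 48.3, rank 1552. The nearest candidate had a signal of 9.01 and rank 18723 of 30000 in replicate 1, with a summit 161 bp away, and 37.6 and rank 768 in replicate 2, at the same base. UQCR-14 therefore rested on replicate 2: its ranks differed 24.4-fold, the widest gap among the genes whose pooled candidate ranked 5000 or better. Of other protein-coding genes with an IDR promoter summit matched in both replicates, 2.44% had ranks that differed by 10-fold or more. The summit lay 14 bp upstream of UQCR-14, within a non-coding part of an exon of the overlapping gene CG32576, and no other start lay within 500 bp.

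The 4 complex IV genes encode nuclear subunits that surround the catalytic core made in the mitochondrion. COX5A, peak chr3R:11819379-11819754, had an IDR signal of 78.6, rank 541. The COX5A candidate had a signal of 29.6 and rank 899 in replicate 1, and 48.3 and rank 439 in replicate 2. The COX5A summit lay 32 bp upstream of a downstream start, in a non-coding part of an exon of a longer COX5A transcript, and 147 bp upstream of glo, which encodes the RNA-binding protein Glorund. COX6B, peak chrX:19744170-19744545, had an IDR signal of 69.4, rank 728. The COX6B candidate had a signal of 19.8 and rank 2099 in replicate 1, and 51.4 and rank 368 in replicate 2, a 5.70-fold difference in rank. COX6B shares its start with CG18809 at 23 bp from the summit, and CG33932 and Rpp20 (a subunit of RNase P) start 73 bp away in the other direction.

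COX5B, peak chr2L:6557318-6557693, had an IDR signal of 57.2, rank 1097. Its candidate had a signal of 16.6 and rank 3236 in replicate 1, and 37.0 and rank 804 in replicate 2. The COX5B summit lay 294 bp upstream of COX5B and 4 bp upstream of IFT52, an intraflagellar transport gene, so it is close to the neighbour's start. COX8, peak chr3L:21539260-21539635, had an IDR signal of 46.5, rank 1682. Its candidate had a signal of 19.7 and rank 2116 in replicate 1, and 26.6 and rank 1779 in replicate 2, outside the strongest 1696 of either. COX8 was the weakest of the 12, just over the lowest IDR signal of 46.4, and its summit stood 1 bp before its start and 414 bp from that of VhaM9.7-b, a subunit of the vacuolar proton pump. All 4 complex IV peaks ranked higher in replicate 2. When the strongest 1696 candidates of replicate 1 alone were taken, 1 of the 16 complex IV genes had a promoter summit, and with replicate 2 alone 3 had, against 10.4% and 10.5% of all protein-coding genes.

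ATPsynE, which encodes subunit e of the membrane part of ATP synthase, was the only complex V gene with an IDR promoter summit. Its peak, chr3R:14326803-14327178, had a signal of 64.2, rank 863. The ATPsynE candidate had a signal of 29.4 and rank 925 in replicate 1, and 35.5 and rank 902 in replicate 2. No other gene of the 12 had replicate ranks so close to each other in ratio. The summit lay 44 bp downstream of an ATPsynE start, within a non-coding part of its own exon, and 302 bp upstream of Afti. With replicate 2 alone complex V had 2 such genes, ATPsynF having entered, and with replicate 1 alone it had 1.

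Across the 12 genes, 8 had candidates within the strongest 1696 of both replicates, 4 ranked below that in replicate 1 (33.3%, against 19.1% of other protein-coding genes with an IDR promoter summit) and 1 of them, COX8, below it in replicate 2 as well (8.33%, against 19.3%). The rank was better in replicate 2 for 9 of the 12, 75.0%, against 48.4% of those other genes. The median ratio between the ranks was 1.81 for the 12 and 1.75 for the others, and it was 10 or more for 1 of the 12 (8.33%), UQCR-14, against 2.44% of the others. The median IDR signal was likewise close, 66.8 for the 12 and 67.4 for the others, and 2 of the 12, 16.7%, were among the strongest 424 of the IDR list, against 26.9% of the others. Without replicate 1 the gene count is 12, against 10.5% of all protein-coding genes, where COX8 left and ATPsynF entered. Without replicate 2 it is 9, against 10.4%, where COX5B, COX6B, COX8 and UQCR-14 left and ND-B17 entered.

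**Figure D2:**
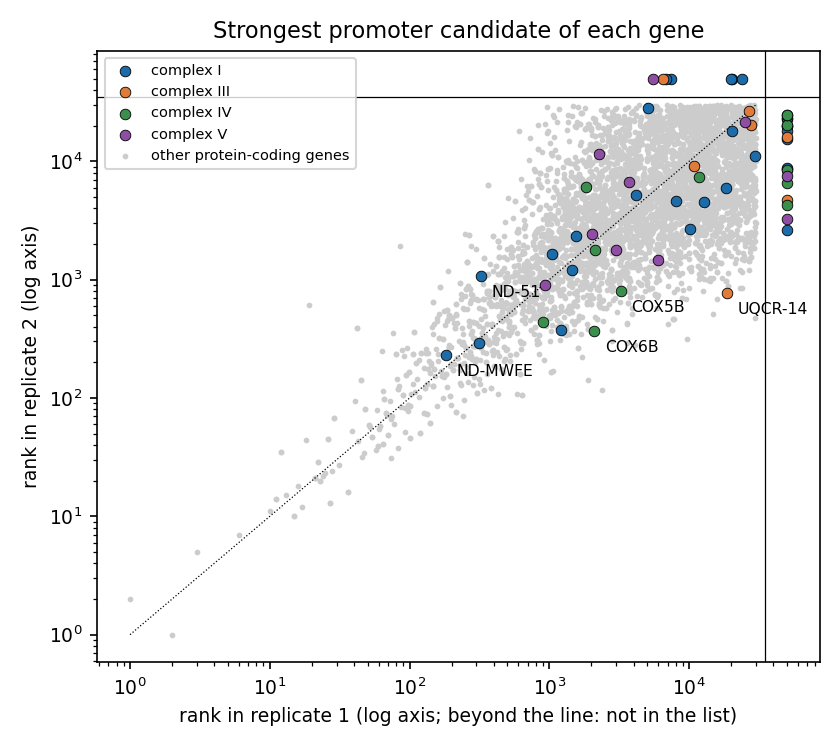
Rank of the strongest promoter candidate of each gene in replicate 1 (horizontal) and replicate 2 (vertical), both on log axes with rank 1 the strongest; coloured points are the oxidative phosphorylation genes by complex, grey points the other protein-coding genes in both lists, and points beyond the solid lines are genes with no candidate in that replicate. UQCR-14 stands far off the dotted line of equal ranks, at 18723 in replicate 1 and 768 in replicate 2, while ND-MWFE lies close to it at 182 and 232.

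Most of the 12 summits had a neighbouring gene read in the opposite direction close by. Of the 12, 11 (91.7%) had the start of another gene on the opposite strand within 500 bp of the summit, against 831 of 1481 (56.1%) other protein-coding genes with an IDR promoter summit. The exception was UQCR-14. This count does not require the summit to lie between the genes. The summits of ND-24, COX5A and ATPsynE lay downstream of an own start, and that of ND-42 downstream of a start of Cchl. A start of the gene itself was the nearest one in 7 of the 12 (58.3%), against 71.4% of the others, and the 5 whose summit was nearer another gene were ND-MWFE, ND-ASHI, ND-51, COX5B and ND-42. Counting each summit for its nearest protein-coding gene alone, 7 of the 80 genes have one, against 7.71% of all protein-coding genes. Which gene of a pair a peak belongs to was not measured here. The 12 summits are 12 distinct peaks, 10 upstream and 2 downstream of the nearest own start. The median distance was −47.5 bp (−141 bp with replicate 1 alone), against −109 bp for other genes. Both downstream summits lay between own starts, and the nearest own start differed between the replicates. From that nearest start, ND-24 stood at −52 bp in replicate 1 and 80 bp in replicate 2, and ATPsynE at 27 and −60 bp. These changes of sign thus do not show a summit crossing a start. Among the upstream ones, COX6B stood 2 bp downstream in replicate 1 and COX8 2 bp downstream in replicate 2. Of the 12 summits, 4 lie in exons and 0 in coding exons.

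**Figure D3:**
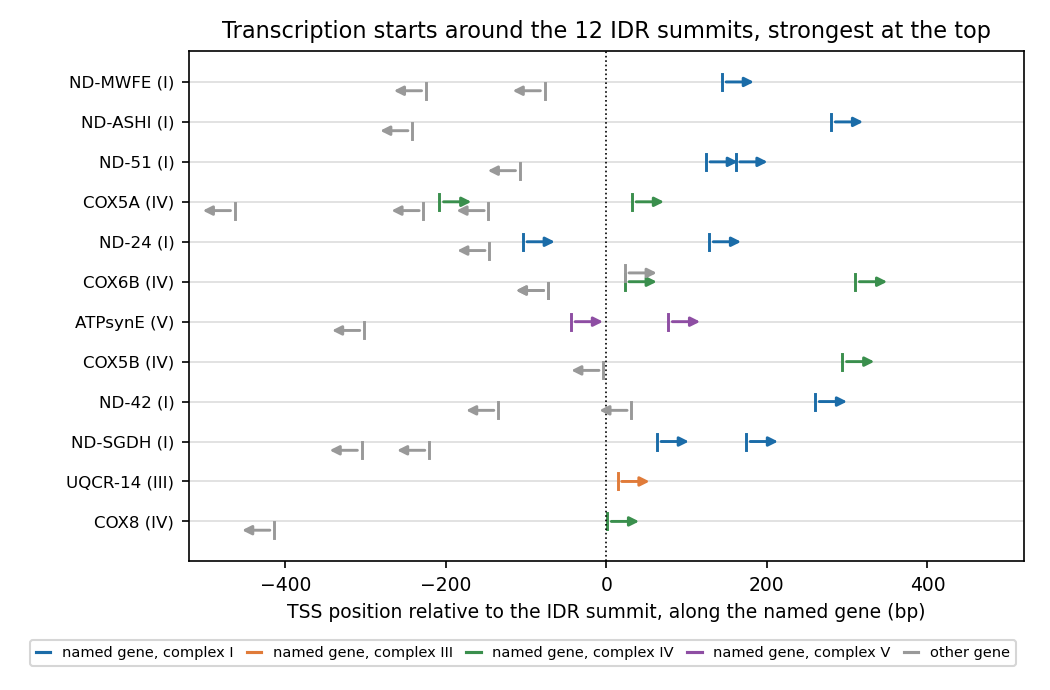
Transcription starts around the 12 IDR promoter summits, in order of signal from ND-MWFE (125) at the top to COX8 (46.5); the horizontal axis is the position of each start relative to the summit in bp, along the direction of the named gene. Coloured arrows are starts of the named gene by complex and grey arrows are starts of other genes, pointing the way they are read; 11 of the 12 summits have a grey start read the opposite way within 500 bp, and UQCR-14 has none.

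The arrangement itself was examined over the whole gene set. A protein-coding start on the opposite strand within 1000 bp upstream of an own start, called a divergent partner here, was found for 42 of the 80 genes (52.5%, 41.7% to 63.1%), against 36.2% of all protein-coding genes, a share below the interval. Of the genes named L, 3 of 21 had one. Of the 12 genes with an IDR promoter summit, 11 had a divergent partner (91.7%, 64.6% to 98.5%). The share among all protein-coding genes with an IDR promoter summit was 66.5%, which that interval includes. Among genes with a divergent partner, an IDR promoter summit was held by 11 of 42 (26.2%, 15.3% to 41.1%), against 19.7% of all protein-coding genes with such a partner. Among genes without one it was held by 1 of 38 (2.63%, 0.466% to 13.5%), against 5.62% of all such genes. Both intervals include the share of all genes of the same arrangement, so within an arrangement the set was not told apart from other genes. The same held for replicate 2 candidates. With a partner they were held by 33 of 42 (78.6%, 64.1% to 88.3%), against 71.0%. Without a partner it was 18 of 38 (47.4%, 32.5% to 62.7%), against 41.0%.

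Just below the IDR list, ATPsynF had a pooled candidate with a signal of 43.8, rank 1900 of 21725, and ATPsynO one with 43.6, rank 1919. ATPsynF, which encodes subunit f of the membrane part, ranked 6011 in replicate 1 and 1467 in replicate 2. ATPsynO, which encodes the oligomycin sensitivity protein of the stalk, ranked 2987 in replicate 1 and 1770 in replicate 2. Both sat close to their starts, at 70 and 64 bp upstream. Like every pooled candidate that did not pass, both lay under the lowest IDR signal of 46.4. ATPsynB, another stalk subunit, had a pooled signal of 33.1 at rank 3474 and ranked 3692 in replicate 1 and 6737 in replicate 2. In complex I the strongest that did not pass were ND-B17 with a pooled signal of 42.7, ND-15 with 36.4 and ND-23, a core iron-sulfur subunit, with 34.9. ND-B17 ranked 1545 in replicate 1 and 2334 in replicate 2, and was within the strongest 1696 candidates of replicate 1. ND-15 ranked 8063 in replicate 1 and 4579 in replicate 2, and ND-23 ranked 4129 in replicate 1 and 5153 in replicate 2.

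In complex IV, COX7B had a pooled signal of 40.2 at rank 2285 and ranked 1838 in replicate 1 and 6054 in replicate 2. COX7A had a pooled signal of 25.5 and ranked 11685 in replicate 1 and 7341 in replicate 2. COX7AL2, with a pooled signal of 19.6, had no promoter candidate in replicate 1 and ranked 4246 in replicate 2. In complex III, UQCR-C2, a large core protein of the complex, had a pooled signal of 31.1 with the summit 383 bp upstream, and ranked 10877 in replicate 1 and 9198 in replicate 2. UQCR-6.4 had a pooled signal of 19.0, with no promoter candidate in replicate 1 and rank 4685 in replicate 2. Across the 29 pooled candidates that did not pass, signals ran from 15.6 to 43.8 with a median of 24.4. Over all genes with a pooled promoter candidate, the median signal was 27.4 for the 21 of complex I, 31.1 for the 3 of complex III, 40.2 for the 9 of complex IV and 32.6 for the 8 of complex V. As one group the 41 had a median of 31.1, against 28.9 for the 6357 other protein-coding genes, and 70.7% of their summits lay within 150 bp of a start, against 55.4%.

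**Figure D4:**
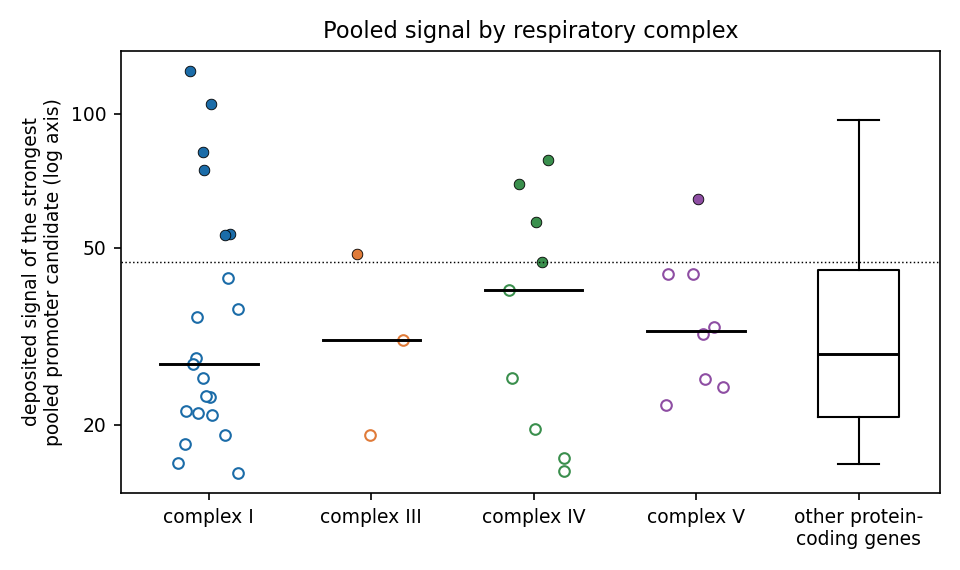
Deposited signal of the strongest pooled promoter candidate of each gene, on a log axis, for complexes I, III, IV and V and, at the right, other protein-coding genes as a box (quartiles, with whiskers at the 5th and 95th percentiles). Filled points are genes with an IDR promoter summit and open points the others, solid bars are medians (27.4, 31.1, 40.2, 32.6 and 28.9), and the dotted line is the lowest IDR signal, 46.4.

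Genes of the same pathway that the names do not take in were examined as a list of 21 symbols, of which 17 were matched. Of these, 1 (5.88%) had an IDR promoter summit, against 10.7% of all protein-coding genes: Cyt-c-d, a cytochrome c gene, with a signal of 76.8 at rank 574 and a summit 361 bp downstream of its start. Its candidate ranked 1125 in replicate 1 and 398 in replicate 2. Of the 4 matched genes SdhA, SdhB, SdhC and SdhD, which encode complex II, SdhD had the strongest pooled candidate, with a signal of 34.3 at rank 3233. Among 6 regulators of mitochondrial genes, 0 had an IDR promoter summit, against 10.7% of all protein-coding genes. All 6 had a promoter candidate in replicate 2, against 51.9%, and 1 had one in replicate 1, against 47.1%. That 1 was srl, the fly homologue of PGC-1, with a pooled signal of 42.9 at rank 1984. The gene blw, which encodes the alpha subunit of ATP synthase and was looked up after the values of the others were seen, had an IDR signal of 97.1 at rank 336, 95 bp upstream of its start. It ranked 335 in replicate 1 and 391 in replicate 2. Its catalytic partner ATPsynbeta, also singled out after its values were seen, had no pooled candidate within 500 bp of a start. The nearest pooled candidate lay 509 bp from a start, just outside that window. The promoter candidates of ATPsynbeta ranked 2258 in replicate 1, at −422 bp from a start, and 11524 in replicate 2, at 29 bp.

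Motifs were searched on both strands from 250 bp upstream to 50 bp downstream of the outermost start of each gene, as a description of letters and not of binding. GGTCACACT, the motif of the promoter protein M1BP, was in 15 of the 80 promoters (18.8%, 11.7% to 28.7%), against 6.05% of all 13945. Within 100 bp upstream alone it was in 5 of the 80, against 2.22% of all promoters, and within 500 bp upstream, with nothing downstream, in 9, against 4.70%. The 15 were 7 of 40 in complex I, 1 of 9 in complex III, 5 of 16 in complex IV and 2 of 15 in complex V. It was in 3 of the 12 genes with an IDR promoter summit (25.0%) and in 12 of the 68 without (17.6%). In ND-MWFE, COX5A and COX5B, the 3 with both, the match began 168, −244 and 306 bp from the summit along the gene, so no match lay within 100 bp of any of the 12 summits. A match beginning downstream of the start was found in 6 of the 15 promoters, 40.0%, against 37.0% of all promoters with the motif.

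The nuclear respiratory gene core, searched as TTACATAA, TTACGTAA or TTATATAA, was in 5 promoters (6.25%), against 5.18% of all. All 5 were in complex I: ND-42, ND-SGDH, ND-30, ND-49 and ND-MNLL. Within 500 bp upstream it was not restricted to that complex, being in 5 of 40 genes of complex I, 0 of 9 of complex III, 2 of 16 of complex IV and 1 of 15 of complex V. The printed ND-SGDH sequence shows it at base 198, 23 bases before the summit. TATCGATA, the element of the factor Dref, was in 9 promoters (11.2%), against 9.36%. At least a pair of CGATA, the core of the insulator protein BEAF-32, was found on either strand (a single TATCGATA counts as a pair) in 23 promoters (28.8%), against 24.3%. GAGAG, the repeat of GAGA factor (GAF), was in 17 (21.2%), against 29.7%, and the E-box CAGGTG was in 5 (6.25%), against 9.32%. The KLF core, searched as CACACCC or CACGCCC, was in 2 promoters (2.50%), against 3.36%. Within 100 bp of an IDR summit the KLF core was in 0 of 12 windows, against 2.63% of 1481 other genes, and the CGATA pair in 4 of 12 (33.3%), against 26.5%. For these 6 motifs the Wilson interval of the 80 genes includes the share of all promoters, and for M1BP it does not. The median GC content of the 12 windows was 37.1%, against 37.3% for the others.

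**Figure D5:**
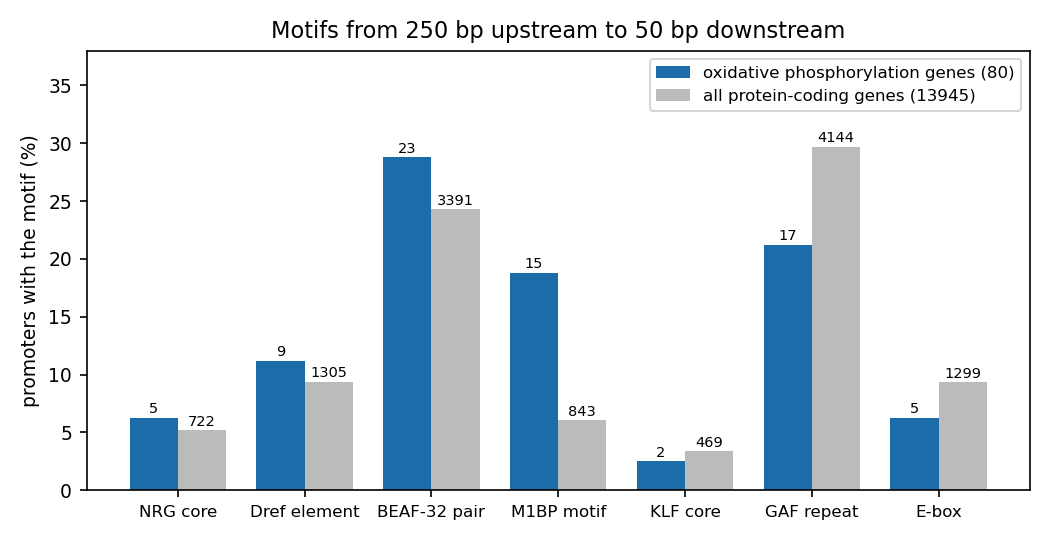
Share of promoters (%) that hold each motif on either strand between 250 bp upstream and 50 bp downstream of the outermost start, for the 80 oxidative phosphorylation genes (left bar of each pair) and all 13945 protein-coding genes (right bar); numbers are counts of genes. The M1BP motif stands at 18.8% in the oxidative phosphorylation genes and 6.05% in all genes, and the KLF core at 2.50% and 3.36%.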

How the data were processed

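Binding of luna-GFP was measured by ChIP-seq in 2 biological replicates of 1 group. The deposited README texts say that alignments and a control file gave the candidates, that both replicates' alignments went into the pooled list, and that the IDR list came from all 3 candidate lists. Not given in the sources used here: aligner, caller, versions and IDR threshold. Each peak carries a signal that the authors deposited, used as a score to describe and rank peaks within a list. The 1696 IDR peaks are the 1696 strongest of 21725 pooled candidates, and each replicate list holds 30000. Read depth is unknown, so precision is given only as counting intervals over genes.

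Genes and TSSs came from Ensembl release 115 (BDGP6.54, the coordinates of dm6) on arms 2L, 2R, 3L, 3R, 4 and X. Coordinates are 1-based. Replicate candidates were matched to an IDR summit within 250 bp. Lists and summits were handled with Python 3.11.15 and pandas 2.3.3, checked on simulated data. The genes described, the gene lists and the motifs were chosen with earlier results of these data known. Named genes are those with an IDR promoter summit, up to 3 per complex with the strongest pooled candidate that did not pass, up to 5 with the widest gap in replicate ranks, neighbours at the same summit, and listed pathway genes with an IDR summit. Alternatives changed the promoter window, the gene assigned to a summit, the list and the replicate.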

Additional observations from a re-analysis of the deposited data

How the results depend on the processing

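With promoters of 250 bp the count of genes with an IDR promoter summit was 9 in place of 12, against 8.77% of all protein-coding genes. With 1000 bp, the whole peak interval or the outermost start it was 12, against 12.5%, 11.5% and 9.5% in that order. Counting the nearest protein-coding gene alone left 7 genes, 2 of them in complex I, against 7.71%. The strongest 848 IDR peaks left 6 genes, with 0 in complex III, 2 in complex IV and 0 in complex V, against 5.79%, so the background fell along with the count. Leaving out a replicate, by taking the strongest 1696 candidates of the other, gave 9 to 12 genes in all, 0 to 1 in complex III, 1 to 3 in complex IV, 1 to 2 in complex V, and a median distance of −141 to −73.5 bp. Of all protein-coding genes, 10.5% had a promoter summit without replicate 1 and 10.4% without replicate 2. Without replicate 2 complex III had 0 and complex IV had 1. Leaving out the 17 genes named as like another gene of the set, or all 21 named L (added after seeing the data), could not lower the 12, since 0 of them have an IDR promoter summit. It left 37 of 63 or 37 of 59 genes with a pooled candidate, against 45.9% of all protein-coding genes, from which none were left out.

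With 100 bp upstream as the promoter the nuclear respiratory gene core was in 2 genes (2.5%, against 1.24% of all promoters) and GGTCACACT in 5. TATCGATA was in 3 (3.75%, against 6.2%) and the CGATA pair in 9 (11.2%, against 13.5%), both then below all promoters, unlike in the main window. The KLF core was in 0 (against 1.04%), GAGAG in 6 (7.5%, against 13.2%) and CAGGTG in 2 (2.5%, against 3.43%). With 500 bp upstream they were 8 for the nuclear respiratory gene core, 9 for GGTCACACT, 5 for the KLF core and 13 for CAGGTG. Both of these windows end at the start, and GGTCACACT was then in 2.22% and 4.70% of all promoters. In other respects the cause of these differences was not tested. Counts in single complexes are small, and depth is unknown. No paired analysis was possible because the series holds 1 group.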
